A study of Homo sapiens with 6 samples.

Results

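The zinc finger genes with a ZNF name on chromosome 19 form the largest family of DNA-binding factors on that chromosome, and 194 of them were expressed in SW480 cells. They were selected from the deposited table by 3 criteria: chromosome 19, a symbol of ZNF with a number and at most 1 further letter, and a mean over all 6 samples of at least 0.7 RPM (read number scaled to library depth). Of 216 symbols with such a name, 22 lay below that mean, and the table holds 22258 symbols in all. The genes were thus chosen by a mean level over both groups together, and their levels are given as a description. Just inside the limit were ZNF132 at 0.777 RPM, ZNF177 at 0.908 RPM and ZNF442 at 0.939 RPM, and just outside it were ZNF781 at 0.696 RPM, ZNF114 at 0.506 RPM and ZNF610 at 0.504 RPM. Of the 194 genes, 108 lay on the plus strand and 86 on the minus strand, and 3 carried names of pseudogenes (ZNF833P, ZNF137P and ZNF724P).

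RNA was sequenced from SW480, a line of human colon cancer cells, in 2 groups of 3 samples. The 3 KD samples carried the genotype ALDH1B1 KD, and the 3 control samples, marked SCR, carried the genotype WT; neither group had a further treatment. Samples of each group were numbered 4, 5 and 6. The sources used here do not say how the knockdown of ALDH1B1, a mitochondrial aldehyde dehydrogenase, was made, whether SCR names a control construct, or whether samples of a group came from separate cultures, so p-values reflect the spread among these 6 samples and that spread may be technical.

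Most zinc finger genes of chromosome 19 arose by tandem duplication and stand in runs of close relatives. A typical protein has a KRAB domain near its start and a long array of C2H2 zinc fingers at its end. The fingers read DNA, often in transposable elements, and the KRAB domain recruits TRIM28, which brings the histone methyltransferase SETDB1 and heterochromatin proteins to the site. Some members lack KRAB, and a few act outside transcription.

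In 2 neighbouring pairs of members both genes changed the same way in each of 17 alternative fits, and their promoters are shown here to set the sequences of the pairs side by side. ZNF493 and ZNF429 both rose in KD cells, and ZNF844 and ZNF20 both fell. The windows hold 300 bases around the gene start from RefSeq's GRCh38.p14 table, and they are ZNF493 at chr19:21396883-21397182 on the plus strand, ZNF429 at chr19:21505352-21505651 on the plus strand, ZNF844 at chr19:12064481-12064780 on the plus strand and ZNF20 at chr19:12140301-12140600 on the minus strand. Each is written 5′ to 3′ along its gene's strand. Capitals mark CCAAT, the word CCGGAAG and the longer word GTCACTCAG, each searched on both strands, and no match of one overlaps a match of another in these windows. The longer word was picked after the windows were seen.
ZNF493: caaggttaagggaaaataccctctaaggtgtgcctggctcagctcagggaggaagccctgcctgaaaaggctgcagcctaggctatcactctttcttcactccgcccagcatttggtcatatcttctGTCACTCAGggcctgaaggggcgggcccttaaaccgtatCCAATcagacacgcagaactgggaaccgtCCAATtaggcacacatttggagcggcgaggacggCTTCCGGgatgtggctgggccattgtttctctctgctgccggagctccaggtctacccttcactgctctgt
ZNF429: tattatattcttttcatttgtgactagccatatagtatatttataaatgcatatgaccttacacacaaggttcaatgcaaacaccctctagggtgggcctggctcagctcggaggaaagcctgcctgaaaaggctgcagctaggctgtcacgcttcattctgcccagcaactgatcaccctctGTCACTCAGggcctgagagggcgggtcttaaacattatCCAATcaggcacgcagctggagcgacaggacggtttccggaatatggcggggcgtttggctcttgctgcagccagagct
ZNF844: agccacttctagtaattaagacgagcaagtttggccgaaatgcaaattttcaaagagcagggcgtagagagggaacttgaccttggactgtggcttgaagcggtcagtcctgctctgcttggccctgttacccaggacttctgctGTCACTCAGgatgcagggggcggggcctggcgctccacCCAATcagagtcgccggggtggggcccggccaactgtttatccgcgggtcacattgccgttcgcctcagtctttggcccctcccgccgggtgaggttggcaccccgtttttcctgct
ZNF20: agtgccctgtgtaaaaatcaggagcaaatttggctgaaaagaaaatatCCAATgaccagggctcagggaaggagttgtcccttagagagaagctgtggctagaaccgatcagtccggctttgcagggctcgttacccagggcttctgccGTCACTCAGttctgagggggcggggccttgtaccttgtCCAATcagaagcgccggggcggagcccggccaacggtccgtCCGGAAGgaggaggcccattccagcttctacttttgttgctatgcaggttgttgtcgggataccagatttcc
All 4 windows hold GTCACTCAG and, after it, the CCAAT box, in the pair that rose and in the pair that fell, while CCGGAAG, the core of an ETS family site, is present in ZNF493 and ZNF20. Of the 194 members, 171 had a promoter in the table. CCGGAAG was present in 43.9% of these, in 37.4% of 182 promoters of ZNF genes on other chromosomes, in 18.9% of 9900 promoters of tested genes and in 10.7% of all 27305 promoters. CCAAT was present in 53.2% of member promoters, in 44.5% of those of ZNF genes on other chromosomes, in 36.5% of those of tested genes and in 35.7% of all promoters. TATAAA was present in 2.34% of member promoters, in 4.40% of those of ZNF genes on other chromosomes, in 5.19% of those of tested genes and in 11.95% of all promoters. The median number of CpG dinucleotides per 300-base window was 20 for members, 24.5 for ZNF genes of other chromosomes, 26 for tested genes and 14 for all promoters. Among members, CCGGAAG was present in 52.4% of the promoters of genes that rose, in 42.9% of those of genes that fell and in 42.65% of those not called.

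The members together took a similar share of the RNA in both groups. In bulk RNA, fewer cells that express a gene and less of its RNA per cell cannot be told apart. Their summed level was 2006, 1992 and 1992 RPM in KD replicates 4, 5 and 6, against 2023, 2048 and 1923 RPM in SCR replicates 4, 5 and 6. This is 0.1997% ± 0.00082 of all reads in KD cells and 0.1998% ± 0.00664 in SCR cells (SD, n = 3 each), and the groups overlapped. RPM is not corrected for gene length, so levels are not compared between genes. The median member had a mean of 6.74 RPM over the 6 samples, 14 members were below 2 RPM and 24 were at or above 20 RPM. The 10 members with the most reads held 20.9% of the sum and were ZNF146, ZNF587, ZNF507, ZNF787, ZNF302, ZNF317, ZNF580, ZNF83, ZNF714 and ZNF544. No member was listed at 0 in any sample, and the lowest value of any member corresponded to 12.7 reads, for ZNF878 in KD replicate 6.

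Individually, 24 of the 194 members rose in KD cells, 16 fell and 154 did not pass the test (limma, two-sided, Benjamini-Hochberg adjusted p under 0.05 over all 15451 symbols with a mean of at least 0.7 RPM). The called share was 20.6% of members, against 41.9% of all symbols tested, of which 22.7% rose and 19.3% fell. Among ZNF genes of other chromosomes 81 of 228 were called (35.5%), and among the other symbols of chromosome 19 it was 338 of 882 (38.3%). The split of members into rises and falls depended on the scaling, with 18 rising and 37 falling after quantile normalization and 38 rising and 13 falling after scaling to the listed genes without mitochondrial genes. The called share of members stayed below that of all symbols under both, at 55 of 194 members against 47.3% of all symbols and at 51 of 194 members against 47.9% of all symbols.

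Changes were also small. The median absolute log2 fold change was 0.17 over the members, 0.22 over ZNF genes of other chromosomes, 0.23 over other symbols of chromosome 19 and 0.24 over all symbols tested. Only ZNF497 and ZNF429, or 1.03% of members, changed by at least 1 on the log2 scale, against 5.92% of all symbols. A change of at least 0.5 was seen in 15 members (7.73%), against 21.5% of all symbols. Of the 40 called members, 31 changed by less than 1.5-fold. The values of KD and SCR samples did not overlap in 74 members (38.1%), 39 with KD higher and 35 with KD lower, against 51.1% of all symbols, 26.5% with KD higher and 24.6% with KD lower. The signed median over the members was 0.06, against 0.00 over all symbols tested, and it was -0.09 after quantile normalization, against -0.04 over all symbols. It was 0.03 without KD replicate 5, where its excess over all symbols was 0.014, against 0.058 with all samples, and 0.03 without SCR replicate 6, where that excess was 0.074.

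Since members had fewer reads than the typical gene, the same counts were taken within bands of expression. Of the 14 members from 0.7 to 2 RPM, 1 was called (7.14%), against 26.9% of all symbols in that band. From 2 to 5 RPM it was 11 of 60 (18.3%) against 39.8%, and from 5 to 10 RPM it was 8 of 52 (15.4%) against 42.0%. From 10 to 20 RPM it was 13 of 44 (29.5%) against 42.7%, and at 20 RPM or more it was 7 of 24 (29.2%) against 47.1%. The called share of members was thus below that of all symbols in each of the 5 bands. The standard errors were similar within a band, with a median of 0.18 for members and 0.19 for all symbols from 2 to 5 RPM, and of 0.11 for both from 10 to 20 RPM. The median absolute log2 fold change from 2 to 5 RPM was 0.18 for members and 0.36 for all symbols, and at 20 RPM or more it was 0.15 for members and 0.20 for all symbols. Below 10 RPM the signed median of members was under that of all symbols. It was 0.03 against 0.22 from 0.7 to 2 RPM, 0.12 against 0.18 from 2 to 5 RPM and 0.08 against 0.11 from 5 to 10 RPM. Above that it was the higher, at 0.05 against 0.02 from 10 to 20 RPM and -0.05 against -0.08 at 20 RPM or more. The share of symbols whose groups did not overlap was also lower for members in the 4 bands below 20 RPM, at 47.7% of members against 52.6% of all symbols from 10 to 20 RPM. At 20 RPM or more it went the other way, with 15 of 24 members (62.5%) against 55.8% of all symbols. No test was made of these differences between sets.

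**Figure D1:**
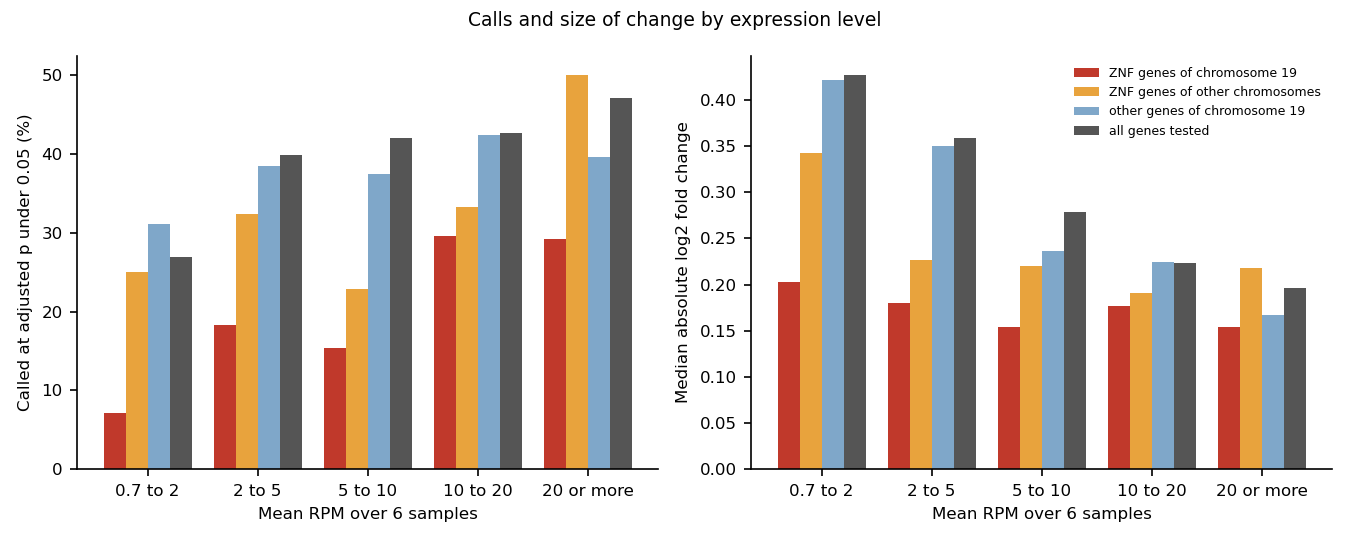
Share of genes called (left, percent) and median absolute log2 fold change (right) within 5 bands of mean RPM, for ZNF genes of chromosome 19, ZNF genes of other chromosomes, other genes of chromosome 19 and all genes tested. The bar of the chromosome 19 ZNF genes is the lowest of its band in every band on the left, from 7.14% to 29.5%, and on the right.

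Among the members that rose, the log2 fold changes ran from 0.29 to 1.08 with a median of 0.44. ZNF497, with 14 C2H2 fingers by pattern match and no match to a KRAB pattern, had 3.76, 2.52 and 2.60 RPM in KD cells, against 1.95, 1.004 and 1.32 RPM in SCR cells. It was higher in every KD sample than in any SCR sample, and its log2 fold change was 1.08 (SE 0.25, adjusted p = 0.00105). Its position overlaps genes on both strands, among them A1BG-AS1, and whether reads were assigned by strand is not given in the sources used here. ZNF429, a KRAB gene with 15 fingers at chromosome 19, 21679484 to 21739073 as the table has it, had 2.37, 3.73 and 2.45 RPM in KD cells, against 1.504, 1.23 and 1.402 RPM in SCR cells. The groups did not overlap, and the log2 fold change was 1.02 (SE 0.23, adjusted p = 0.000922). Its neighbour ZNF493, a KRAB gene with 18 fingers at 21579921 to 21610376, had 7.98, 8.25 and 7.11 RPM in KD cells, against 4.83, 4.74 and 3.48 RPM in SCR cells. All KD samples were above all SCR samples, and the log2 fold change was 0.85 (SE 0.15, adjusted p = 6.35e-05).

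ZNF331 had the smallest adjusted p among the members. It is an imprinted KRAB gene with 12 fingers, and methylation of its promoter has been described in tumours of the gut. It had 22.0, 21.2 and 25.3 RPM in KD cells, against 14.2, 14.8 and 10.1 RPM in SCR cells. The means were 22.9 ± 2.16 RPM in KD cells and 13.03 ± 2.58 RPM in SCR cells (SD, n = 3 each), and the log2 fold change was 0.83 (SE 0.12, adjusted p = 7.17e-06). The groups were well apart, with SCR replicate 6 the lowest. With 3 samples against 3 the exact two-sided permutation test cannot go below 0.1 for any single gene, and 0.1 is its value for each gene whose groups do not overlap.

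ZNF224, a KRAB repressor that was first described on the aldolase A gene and that binds WT1, had 16.0, 16.1 and 16.7 RPM in KD cells, against 11.6, 13.3 and 10.4 RPM in SCR cells. It rose by 0.47 on the log2 scale (SE 0.11, adjusted p = 0.00113), and the 3 KD samples were close together. ZNF83, which has 14 fingers and matched no KRAB pattern, had 33.3, 34.5 and 35.6 RPM in KD cells, against 27.0, 25.2 and 23.5 RPM in SCR cells. It rose by 0.45 log2 units (SE 0.088, adjusted p = 0.000211), and it was among the 10 members with the most reads. It shares its position with ZNF137P on the other strand and with clone-named loci on its own. ZNF599 rose by 0.74 log2 units (adjusted p = 0.00194), with 4.32, 3.88 and 5.27 RPM in KD cells, against 3.25, 2.32 and 2.51 RPM in SCR cells. ZNF554 rose by 0.58 log2 units (adjusted p = 0.00281), with 6.98, 7.07 and 7.22 RPM in KD cells, against 5.003, 5.60 and 3.82 RPM in SCR cells. On the log2 scale ZNF600 rose by 0.44, ZNF558 by 0.43, ZNF320 by 0.39 and ZNF841 by 0.35. ZNF320 is uncertain, since 99.5% of the 50-base words of its GENCODE 29 transcript occur in transcripts of other genes, so that reads could be shared between copies.

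Among the members that fell, the log2 fold changes ran from -0.25 to -0.87 with a median of -0.41. ZNF146 took the most reads of any member and had the smallest adjusted p among the falls. It encodes a protein of 10 zinc fingers with no other domain, known as OZF and described as overexpressed in colorectal carcinomas. It had 85.3, 83.7 and 93.0 RPM in KD cells, against 121.8, 124.2 and 112.9 RPM in SCR cells. The means were 87.3 ± 4.96 RPM in KD cells and 119.6 ± 5.94 RPM in SCR cells (SD, n = 3 each), and it fell by 0.45 on the log2 scale (SE 0.076, adjusted p = 3.66e-05). The gap between the groups exceeded the spread within each. ZNF565 overlaps it on the other strand.

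ZNF460 fell the most, by 0.87 log2 units (SE 0.20, adjusted p = 0.000955), with 3.47, 4.42 and 2.48 RPM in KD cells, against 5.39, 5.12 and 8.45 RPM in SCR cells. The groups did not overlap, but SCR replicate 6 stood above the other SCR samples and both groups were widely spread. ZNF844, a KRAB gene with 6 fingers at 12175514 to 12192381, had 5.75, 5.01 and 5.50 RPM in KD cells, against 9.10, 8.44 and 9.09 RPM in SCR cells, and it fell by 0.71 log2 units (SE 0.13, adjusted p = 8.37e-05). Its neighbour ZNF20, a KRAB gene with 11 fingers at 12203658 to 12251223, had 2.97, 2.67 and 2.70 RPM in KD cells, against 4.82, 4.30 and 4.78 RPM in SCR cells, and it fell by 0.74 log2 units (SE 0.16, adjusted p = 0.000825). Both genes had tight replicates and wide gaps between the groups. A readthrough transcript, ZNF625-ZNF20, shares the position of ZNF20, so its reads cannot be separated from it here.

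ZNF473, also known as ZFP100, is one of the members that act outside transcription, as a partner of the U7 snRNP in the 3′ end processing of histone messages. It had 21.8, 23.4 and 22.9 RPM in KD cells, against 29.7, 35.0 and 28.6 RPM in SCR cells. It fell by 0.45 log2 units (SE 0.094, adjusted p = 0.000438), with KD samples close together and SCR replicate 5 the highest, and VRK3 overlaps it on the other strand. ZNF576 fell by 0.43 log2 units, with 8.30, 9.005 and 7.72 RPM in KD cells, against 11.6, 11.3 and 10.9 RPM in SCR cells. ZNF526 fell by 0.40 log2 units, with 13.8, 12.6 and 12.9 RPM in KD cells, against 16.8, 19.4 and 15.7 RPM in SCR cells. Neither matched a KRAB pattern, and SRRM5 overlaps ZNF576 on the same strand. ZNF787, another member with no KRAB match, fell by 0.30 log2 units (adjusted p = 0.00593), with 33.1, 32.96 and 37.5 RPM in KD cells, against 40.9, 45.1 and 41.7 RPM in SCR cells.

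**Figure D2:**
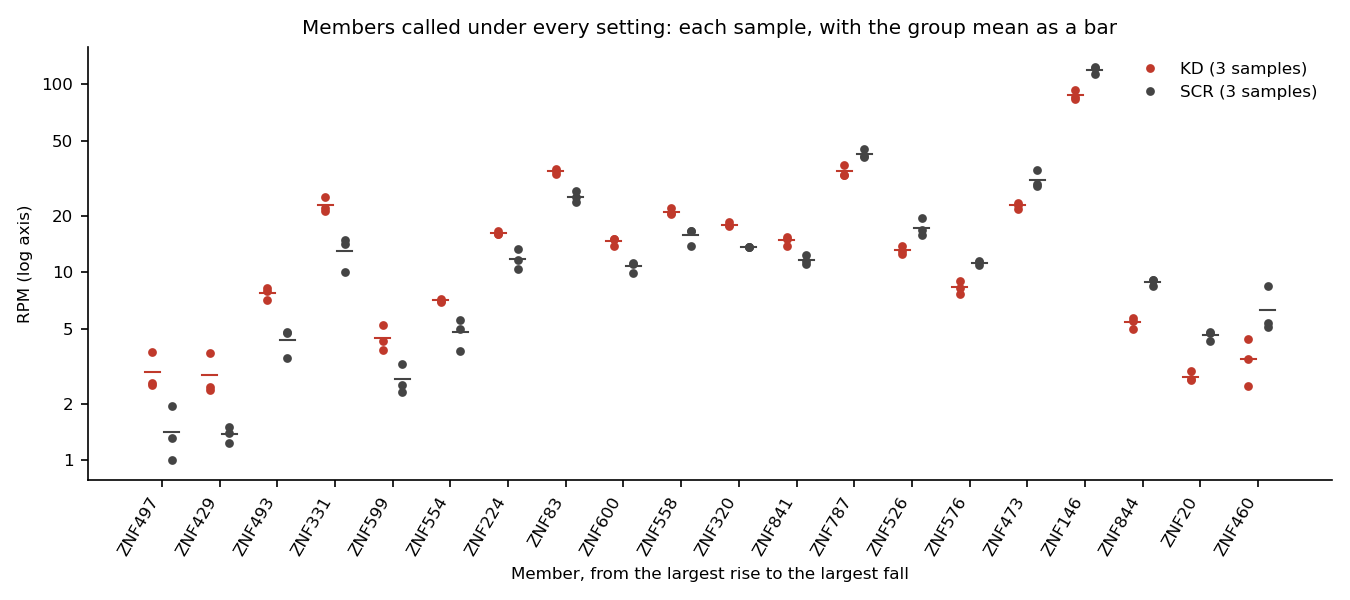
Level in RPM (log axis) of the 20 members called under each of the 17 alternative fits, in the 3 KD and the 3 SCR samples, with the group mean as a bar. KD points lie above SCR points in the 12 genes that rose, ZNF497 to ZNF841, and below them in the 8 that fell, ZNF787 to ZNF460.

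Of the 40 calls, 20 held in each of 17 alternative fits, 12 rises and 8 falls, and these are the genes described first. The other 20 were lost without at least 1 library. ZNF555 rose by 0.46 log2 units (adjusted p = 0.0383), and the call was lost without any KD replicate, without SCR replicate 5 and without SCR replicate 6 (adjusted p = 0.0554 to 0.123). ZNF345 rose by 0.53 log2 units and lost its call without KD replicate 5 (adjusted p = 0.118). ZNF549 rose by 0.54 log2 units and lost its call without each library but SCR replicate 6 (adjusted p = 0.072 to 0.127). ZNF181, with 21.5% of its 50-base words in other genes, rose by 0.33 log2 units and lost its call without KD replicate 4 (adjusted p = 0.0552). ZNF878, with the fewest reads of the called members, fell by 0.82 log2 units and lost its call without KD replicate 6, SCR replicate 5 or SCR replicate 6 (adjusted p = 0.0846 to 0.286). ZNF324B fell by 0.41 log2 units and lost its call without KD replicate 4, KD replicate 6, SCR replicate 4 or SCR replicate 5 (adjusted p = 0.0526 to 0.127). ZNF627 fell by 0.40 log2 units and lost its call without KD replicate 5, KD replicate 6, SCR replicate 4 or SCR replicate 5 (adjusted p = 0.0538 to 0.12). ZNF480 fell by 0.28 log2 units and lost its call without KD replicate 5 or SCR replicate 5 (adjusted p = 0.0764 to 0.0874). The remaining 12 changed by 0.25 to 0.41 log2 units in either direction.

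SCR replicate 6 stood apart from the other SCR samples over the members. The median over members of the log2 value minus the SCR mean was 0.06, 0.07 and 0.00 in KD replicates 4, 5 and 6, against 0.03, 0.04 and -0.05 in SCR replicates 4, 5 and 6. SCR replicate 6 was the lowest SCR sample in 103 of the 194 members, in 15 of the 24 that rose and in 7 of the 16 that fell. This sample was also low over the table as a whole, so the offset was not particular to the members. Its median of ratios scaling factor was 0.939, against 1.027 and 1.034 in SCR replicates 4 and 5. The listed genes held 65.1% of its reads, against 70.3% and 71.1% in those 2 samples. Without SCR replicate 6, 19 members rose and 18 fell.

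Along the chromosome, members were grouped into runs in which neighbouring starts are at most 1 Mb apart. This gave 14 runs, 8 of them with at least 5 members and 182 members between them. Calls were found in each of the 8 runs. The called share ran from 10.4% (ZNF628 to ZNF446) to 40% (ZNF302 to ZNF792), against 41.9% of all symbols tested. The run from ZNF175 to ZNF331, at 52074551 to 54083524, had 30 members, of which 7 rose and 2 fell. Its risers were ZNF577, ZNF841, ZNF83, ZNF600, ZNF320, ZNF160 and ZNF331, and its fallers were ZNF766 and ZNF480. The groups of ZNF577 overlapped, and it lost its call without each library but SCR replicate 4 (adjusted p = 0.0503 to 0.173). ZNF160 lost its call without KD replicate 5 or KD replicate 6 (adjusted p = 0.0617 to 0.0663). The other risers held theirs in each alternative fit. The summed level of the run was 423, 416 and 419 RPM in KD cells, against 398, 396 and 375 RPM in SCR cells, so the groups did not overlap. Among single symbols, the groups did not overlap in 51.1% of all those tested. The median log2 fold change was 0.14 over the run's members and -0.10 over the 7 other tested symbols between its first and last member, of which none rose and 1 fell. These counts moved with the scaling, with 7 rising and 8 falling after quantile normalization and 11 rising and 2 falling after scaling without mitochondrial genes. Without KD replicate 5 none of the run's members fell, without SCR replicate 4 the count was 1, and without SCR replicate 6 it was 4.

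The run from ZNF101 to ZNF254, at 19779605 to 24312655, had 22 members, of which 4 rose (ZNF253, ZNF493, ZNF429 and ZNF100) and none fell, and 14 were higher in KD cells on average. A single member fell without KD replicate 6 or without SCR replicate 6. The number that rose was 2 without KD replicate 4 and 2 without SCR replicate 4, while after quantile normalization 2 rose and 2 fell. Its summed level was 174, 171 and 152 RPM in KD cells, against 159, 153 and 155 RPM in SCR cells, and the groups overlapped. The run from ZNF653 to ZNF791, at 11594242 to 12750913, had 23 members, of which none rose and 4 fell (ZNF627, ZNF878, ZNF844 and ZNF20). Even so, 12 of its members were higher in KD cells on average. Only 2 fell without KD replicate 6, and 2 rose and 3 fell after scaling without mitochondrial genes. Its summed level was 115, 111 and 109 RPM in KD cells, against 115, 119 and 108 RPM in SCR cells, and its median log2 fold change was 0.04. The 9 other tested symbols between its first and last member had a median of -0.34, with 1 rising and 2 falling. In the run from ZNF101 to ZNF254 the 8 other tested symbols had a median of 0.00 and none was called. The called share was 18.2% in the run from ZNF101 to ZNF254 and 17.4% in the run from ZNF653 to ZNF791, against 41.9% of all symbols tested. The difference between these runs was not tested.

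The largest run, from ZNF628 to ZNF446 near the end of the long arm at 55987699 to 58992598, had 48 members, with 2 rising, 3 falling and 43 not called. Its sum was 538 ± 1.999 RPM in KD cells and 547 ± 16.1 RPM in SCR cells (SD, n = 3 each), and the groups overlapped. Only 1 of its members rose without KD replicate 4 or without SCR replicate 4. After quantile normalization 1 of its members rose and 10 fell. The median log2 fold change was 0.00 over its members and 0.11 over its 27 other tested symbols, of which 5 rose and 4 fell. The run from ZNF565 to ZNF573, at 36673188 to 38307941, had 19 members and 2 calls, the rise of ZNF345, lost without KD replicate 5, and the fall of ZNF146. Of its 6 other tested symbols 1 rose and none fell. The sum over the members was 211, 211 and 220 RPM in KD cells, against 248, 248 and 230 RPM in SCR cells, with no overlap. ZNF146 carried that difference, since the other 18 members summed to 125, 127 and 127 RPM in KD cells, against 127, 124.2 and 117 RPM in SCR cells, and these overlapped. The short run from ZNF302 to ZNF792 had 5 members, of which ZNF181 and ZNF599 rose and none fell. Without KD replicate 4 only ZNF599 rose, and without SCR replicate 6 there was 1 fall. The run held no other tested symbol. The sum over its members was 76.5, 67.74 and 73.3 RPM in KD cells, against 67.73, 66.1 and 60.7 RPM in SCR cells, with no overlap. The run from ZNF557 to ZNF846 had 3 rises and 1 fall of 14, a fall that was lost without KD replicate 4, KD replicate 6, SCR replicate 4 or SCR replicate 6. Its 33 other tested symbols had 8 rises and 6 falls. The sum over the members of this run was 165.4, 169.0 and 165.8 RPM in KD cells, against 164.1, 164.9 and 152.6 RPM in SCR cells, with no overlap. The margin was narrow here (165.4 against 164.9 RPM) and in the run from ZNF302 to ZNF792 (67.74 against 67.73 RPM). These sums are on the deposited scale, and among single symbols the groups did not overlap in 51.1% of all those tested. Of the run from ZNF575 to ZNF296, with 21 members, 3 rose and 1 fell, and of its 23 other tested symbols 6 rose and 3 fell. The number of its members that rose was 1 without KD replicate 5 and 1 without KD replicate 6.

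**Figure D3:**
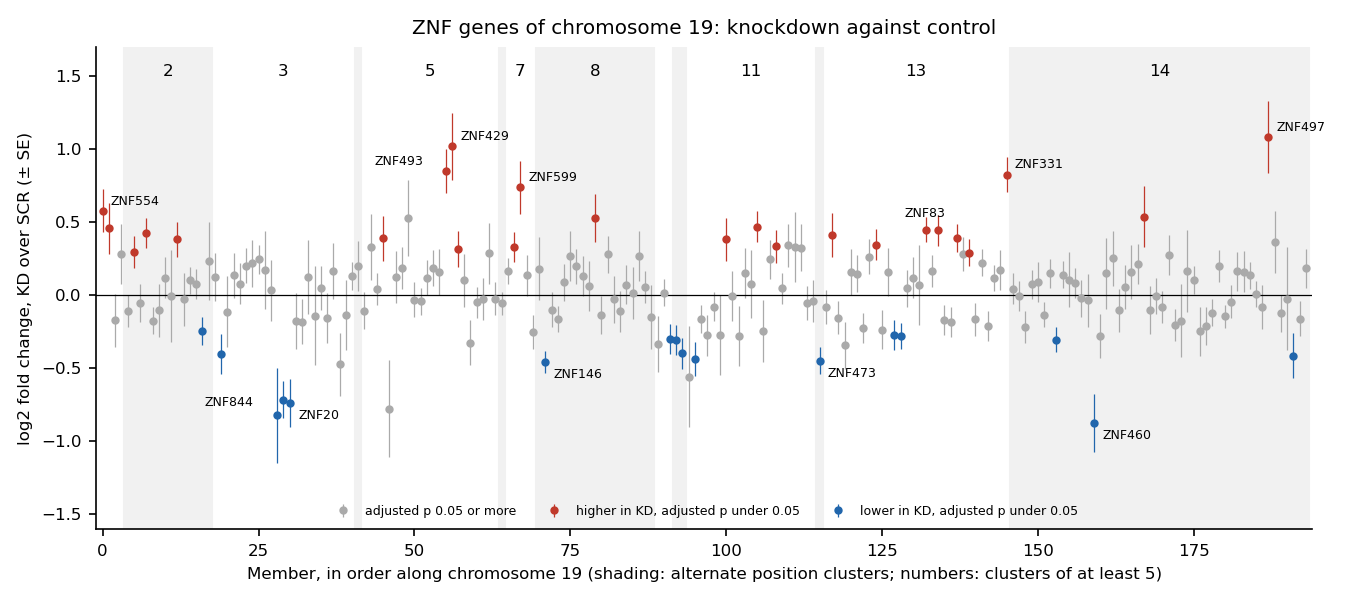
Log2 fold change, KD over SCR, with its SE for each of the 194 members in order along chromosome 19, with position runs shaded alternately and the 8 runs of at least 5 members numbered. Most points lie within 0.5 of 0, the 24 rises (red) and 16 falls (blue) are scattered over the runs, and ZNF497 and ZNF429 exceed 1.

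**Figure D4:**
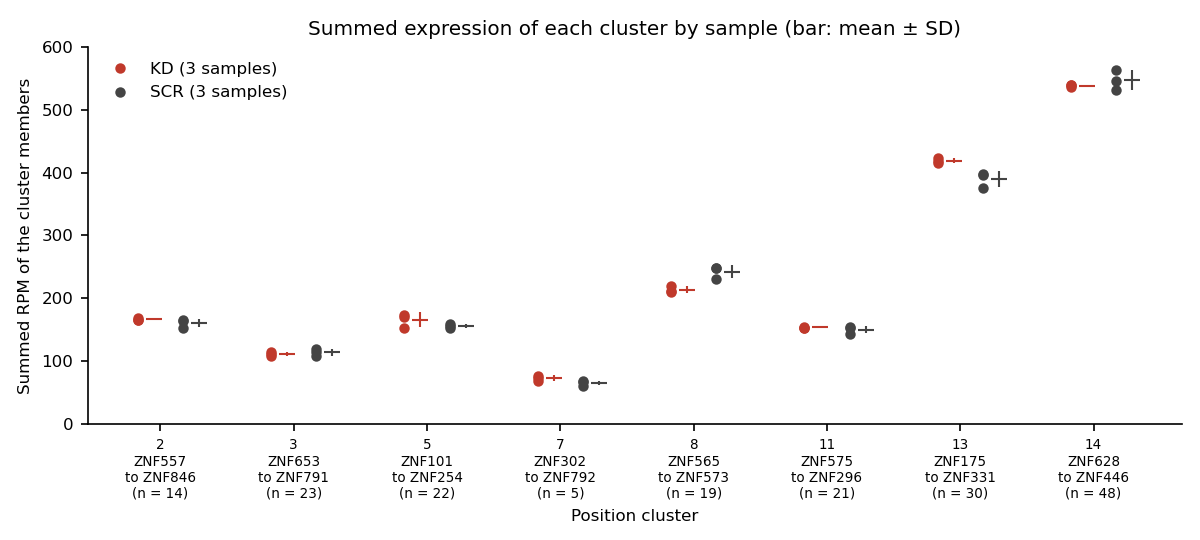
Summed RPM of the members of each run of at least 5 members, in the 3 KD and the 3 SCR samples, with mean ± SD as bars. Run 13, from ZNF175 to ZNF331, is higher in all KD samples (416 to 423 RPM) than in any SCR sample (375 to 398 RPM), and run 8, from ZNF565 to ZNF573, is lower in all KD samples. Runs 2 and 7 are also higher in all KD samples. Run 2 has 165.4 to 169.0 RPM against 152.6 to 164.9 RPM, and run 7 has 67.74 to 76.5 RPM against 60.7 to 67.73 RPM, so both margins are narrow. Among single symbols, the groups did not overlap in 51.1% of all those tested.

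Called members that were next to each other in position order changed the same way. Within a run there were 8 such adjacent pairs, namely ZNF554 with ZNF555, ZNF878 with ZNF844, ZNF844 with ZNF20, ZNF493 with ZNF429, ZNF429 with ZNF100, ZNF181 with ZNF599, ZNF574 with ZNF526 and ZNF766 with ZNF480. In 8 of the 8 both genes moved in one direction, and their starts lay 20894 to 226084 bases apart. In 2 of the pairs, ZNF844 with ZNF20 and ZNF493 with ZNF429, both calls held under every alternative fit. The pattern was noticed after the values were seen and was not tested.

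Of 27 members with a described role, 3 rose (ZNF224, ZNF83 and ZNF331) and 3 fell (ZNF146, ZNF473 and ZNF480). This is a called share of 22.2%, against 20.6% of all members and 41.9% of all symbols tested. Of the 21 that were not called, several are known for the elements or proteins they bind. ZNF91, which represses SVA elements, had 12.2, 13.1 and 12.3 RPM in KD cells, against 13.5, 11.6 and 13.9 RPM in SCR cells (log2 fold change -0.05, adjusted p = 0.744). With 31 matches to the finger pattern it had the most of the members, and its groups overlapped. ZNF93, which represses L1 elements of primates, had 0.617, 0.639 and 0.917 RPM in KD cells, against 1.19, 1.71 and 0.892 RPM in SCR cells (log2 fold change -0.77, SE 0.33, adjusted p = 0.0646). This large difference missed the threshold at a level near the limit of 0.7 RPM, and the groups overlapped. ZNF274, which brings SETDB1 to the 3′ ends of zinc finger genes themselves, had 24.98, 25.3 and 25.6 RPM in KD cells, against 23.3, 24.99 and 20.9 RPM in SCR cells (log2 fold change 0.14, adjusted p = 0.238). ZNF587, which binds endogenous retroviruses of the HERVK group, had 48.6, 50.3 and 48.8 RPM in KD cells, against 52.3, 53.3 and 57.7 RPM in SCR cells (log2 fold change -0.14, adjusted p = 0.15). The groups of ZNF587 did not overlap, although it did not pass the test, and 20.2% of its 50-base words occur in other genes. ZNF417, its close relative with 40.1% of 50-base words in other genes, had a log2 fold change of -0.04. ZNF675, an inhibitor of TRAF6 signalling, had one of -0.02, ZNF350, a partner of BRCA1, one of 0.16, and ZNF175, a repressor of the HIV promoter, one of -0.08, all without passing the test. ZNF808, a gene needed for development of the pancreas, had one of 0.05, with 28.6% of its 50-base words in other genes.

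The domain content of the proteins was read from the coding sequences of GENCODE 29. Finger numbers given here are matches to a fixed C2H2 pattern, so fingers that depart from it are missed. Of the 194 members, 193 matched a gene there and 191 gave a finger count, with a median of 12 and a range of 0 to 31. A short KRAB pattern was matched by 157 and not by 34, and a missing match does not show that KRAB is absent. Of the 157 with a match 20 rose and 10 fell (19.1% called), and of the 34 without 4 rose and 6 fell (29.4% called). The members without a match also took more reads, with a median of 15.4 RPM against 6.08 RPM for those with one. By number of fingers, 17.5% of the 40 members with 8 or fewer were called, 22.1% of the 95 with 9 to 14 and 21.4% of the 56 with 15 or more. Members that rose had a median of 13.5 fingers and members that fell a median of 10.5. At least 20% of the 50-base words were shared with other genes in 22 members, of which 2 were called (9.09%). The called share over all symbols tested was 41.9%, above that of each of these sets. Differences between these sets of members were not tested.

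Of 31 tested corepressor and heterochromatin genes, the partners of KRAB zinc finger proteins, 4 rose and 8 fell. The called share of 38.7% was near the 41.9% of all symbols tested, and the median log2 fold change was -0.09 against 0.00. TRIM28, the corepressor that binds KRAB and itself a gene of chromosome 19, had 334, 309 and 353 RPM in KD cells, against 364, 418 and 369 RPM in SCR cells, and it fell by 0.21 log2 units (SE 0.078, adjusted p = 0.0349). SETDB1 did not pass the test (log2 fold change 0.17, adjusted p = 0.163), while its cofactor ATF7IP fell by 0.30 log2 units (adjusted p = 0.00458). Of the HP1 proteins, CBX5 fell by 0.41 log2 units, with 204, 211 and 219 RPM in KD cells, against 273, 295 and 275 RPM in SCR cells. CBX3 rose by 0.28 log2 units and CBX1 was not called, with a log2 fold change of 0.11. MPHOSPH8 and FAM208A, subunits of the HUSH complex, had log2 fold changes of 0.26 and 0.28 and rose. PPHLN1, also a HUSH subunit, had one of -0.19 and was not called (adjusted p = 0.0832). MORC2, which works with HUSH, had one of -0.29 and fell. HDAC2, UHRF1, DAXX and SUV39H2 also fell, with log2 fold changes of -0.30, -0.19, -0.26 and -0.22. The DNA methyltransferase DNMT3A rose by 0.65 log2 units (adjusted p = 0.000107), with 18.9, 21.4 and 18.7 RPM in KD cells, against 13.5, 14.4 and 10.1 RPM in SCR cells. DNMT1 and DNMT3B were not called, each with a log2 fold change of -0.09.

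The sequencing depth behind these values was 20350000 to 26150000 reads in KD samples and 21080000 to 28580000 reads in SCR samples, of which the listed genes held 65.1% to 71.1%. ALDH1B1 itself had 19.99, 20.4 and 23.2 RPM in KD cells, against 34.1, 39.6 and 36.7 RPM in SCR cells, and it fell by 0.80 log2 units (SE 0.093, adjusted p = 2.38e-07). Of 10 colon epithelium markers 8 were in the table and 7 were at or above 0.7 RPM, and their list summed to 5830 to 6142 RPM in KD cells and 5432 to 5689 RPM in SCR cells, with no overlap. KRT8, KRT18 and KRT19 took most of that sum and were not called. The others went both ways, with log2 fold changes of 1.98 for CDH1, 1.90 for VIL1 and 0.90 for EPCAM, which rose, and -0.76 for CDX2, which fell. Only 2 of 6 fibroblast markers, 4 of 6 leukocyte markers and 1 of 4 endothelial markers were in the table, and 1, 1 and 0 of these reached 0.7 RPM, with list sums of at most 6.92 RPM in KD cells and 5.70 RPM in SCR cells. Their part in the results was not tested.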

How the data were processed

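Strand-specific libraries of total RNA from 6 samples of SW480 cells were sequenced, per the labels. The authors deposited log2 values of RPM plus 0.0001, a scale read from the values. The submitters' processing notes name Partek, Bowtie and hg38, but the positions in the table are of a build that they do not name, since its largest end on chromosome 19 is 59111169. How reads were counted and filtered is not given in the sources used here. Depth was computed from the step of 1 read in low values. Between 77.7% and 79.96% of low values were whole reads within 0.02, and 60.3% to 64.2% of values from 0.7 to 2 RPM, so count models were not used. The level of 3 reads was 0.105 to 0.147 RPM, which covers counting error only.

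The table has 24549 lines for 22258 symbols. The 1192 symbols at several loci had identical values and were used once. Tests covered the 15451 symbols whose mean reached 0.7 RPM, with limma 3.58.1 (R 4.3.3; lmFit, eBayes with trend, two-sided) on the deposited log2 values, KD against SCR, with no covariates. P-values were adjusted by Benjamini-Hochberg over all symbols, with a threshold of 0.05. The code was tested on simulated data. Named are the 10 members with the most reads, the 10 largest rises and 10 largest falls among called members with no overlap and a mean of at least 1.4 RPM, the best call per run, and members with known roles. ZNF878, adjacent called members and the called members listed for runs were named after their values were seen. The members and lists were chosen with earlier results of these data known. Alternatives were 3 pseudocounts, other filters, scalings and variance priors, a replicate block, each library left out, and other gaps between runs.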

Additional observations from a re-analysis of the deposited data

How the results depend on the processing

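Under 17 alternative fits no called member changed sign. Of the named members that were not called, 36 values in 20 members took the other sign, at most 0.217 in size. All 40 calls were kept with pseudocounts of 0.1, 0.5 or 1 RPM, with a robust variance prior and with median of ratios scaling, which called 52 members (28 rose, 24 fell). Without a filter 19 rose and 14 fell, and without a variance trend 22 rose and 13 fell. With a filter at 2 RPM 27 rose and 15 fell of 180. Quantile normalization gave 18 rises, 37 falls and a median of -0.092 (all symbols -0.04). Scaling to listed genes without mitochondrial genes gave 38 rises, 13 falls and a median of 0.11 (all symbols 0.05); the cause was not tested. Leaving out 1 library at a time gave 16 to 21 rises, 11 to 18 falls, 27 to 37 called members and medians of 0.03 to 0.08. Same-numbered samples did not deviate together (correlations -0.05, -0.06 and -0.12), which does not show whether the numbers pair the samples. With the replicate block 18 rose and 12 fell, and 10 of the 40 calls were lost. A gap of 2 Mb gave 5 runs of at least 5 members and a gap of 0.5 Mb gave 11. After the data were seen, 22 members with shared 50-base words were left out, which left 22 rises and 16 falls, and members with pseudogene names were left out, which left 24 and 16. The planned check of protein identity was not run. Depth limits the members below 2 RPM, whose median SE was 0.27.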

Other observations

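The 9-base word GTCACTCAG was noticed in the printed promoters and then counted, so the printed windows are part of the count. It was present on either strand in 23 of 171 member promoters (13.5%) and in 8 of 182 promoters of ZNF genes on other chromosomes (4.40%). The word was in 65 of 9900 promoters of tested genes (0.657%) and in 146 of all 27305 promoters (0.535%). All 23 lay in 2 position runs, 11 of 21 promoters in the run from ZNF653 to ZNF791 and 12 of 18 in the run from ZNF101 to ZNF254, and none in the other runs. Of the genes that carry it 2 rose, 4 fell and 17 were not called. The printed genes, which were chosen because they were called, are among them. Of all 171 members with a promoter, 21 rose and 14 fell, and the called share over all symbols tested was 41.9%. These members share ancestry, so their promoters are not independent.

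Of the 22 symbols with a matching name below 0.7 RPM, ZNF540 belongs to the members with described roles that were listed, at a mean of 0.317 RPM. It had 0.380, 0.491 and 0.306 RPM in KD cells, against 0.315, 0.285 and 0.127 RPM in SCR cells, and it was not tested.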
